A study of Ovis aries with 16 samples.

Results

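ANXA2, LGALS1, FBLN1, TIMP3 and ACAN are 5 genes whose products lie at the cell surface or in the extracellular matrix, and their mRNA levels were described here in the frontal cortex of 16 late gestation fetal sheep. The 5 genes were represented by 8 probes among the 15008 on the array, and by 5 of the 1025 genes to which a name could be given. Most of them were selected on differences already seen in these arrays: ANXA2 and FBLN1 on hypoxia + ketamine against hypoxia control, and LGALS1 and TIMP3 on hypoxia control against normoxia control. For ACAN the selecting comparison was not recorded. Differences in the selecting comparisons, and in those that share fetuses with them, are therefore given as descriptions, as a mean difference with its standard error (SE) and with no test. Only the comparison that shares no fetus with the selecting one was tested.

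All fetuses were chronically catheterized in utero. Each was measured on 1 array, with 3 fetuses in normoxia control, 4 in normoxia + ketamine, 5 in hypoxia control and 4 in hypoxia + ketamine. Hypoxia was a 30 min fall in oxygen brought about by nitrogen in the ewe's inspired gas, and the ketamine groups had received 3 mg/kg of this NMDA receptor antagonist intravenously beforehand. The stimulus, or an equal time in normoxia, was followed by 23.5 h of recovery, so that tissue was taken 24 h after its onset. Most of the fetuses were twins and the labels do not say which shared a ewe, so fetuses may not be fully independent. For replicate 1 of hypoxia control the title and code were followed, since its other labels describe a normoxic fetus given ketamine.

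Levels are log2 intensities after background correction and quantile normalization, so that a difference of 1 is a doubling, and the level of one probe cannot be set against that of another. Between 69.2 and 76.9% of spots per array were well above background by the scanner software's flag, and precision is limited by the small number of arrays. They lay on 2 slides, each of which held all 4 groups. Astrocyte markers GFAP, AQP4 and GJA1 were well above background on 16 of 16 arrays, as was a probe described as neurogranin, a protein of cortical neurons. No gene of the neuron or oligodendrocyte marker lists was on the array under a gene name. In whole tissue, fewer cells of a type and less RNA per cell cannot be told apart.

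Extracellular matrix in the developing brain consists of proteoglycans and glycoproteins around neurons and glia, and of basement membranes and fibrillar collagens around vessels and in the meninges. It is cut by metalloproteinases, which the TIMP proteins inhibit, and cells hold on to it through integrins. Annexin A2 (ANXA2) binds phospholipids at the plasma membrane and serves as a cell surface receptor for plasminogen and its activator. Galectin-1 (LGALS1) binds galactose-containing sugars on cell surface and matrix glycoproteins. Fibulin 1 (FBLN1) is a secreted glycoprotein of basement membranes and elastic fibres, TIMP3 is the TIMP that binds to matrix, and aggrecan (ACAN) is a large chondroitin sulphate proteoglycan of perineuronal nets and cartilage.

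The probe sequences are shown because they decide which probes count as separate measurements of a gene. Each is a 60-base oligonucleotide of the array, written 5′ to 3′ as in the deposited files, with the stretch that it shares with the other probe of its gene in capitals.
ANXA2: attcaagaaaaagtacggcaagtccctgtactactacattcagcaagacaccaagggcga
FBLN1, leading probe: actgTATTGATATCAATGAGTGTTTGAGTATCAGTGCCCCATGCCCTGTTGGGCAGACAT
FBLN1, second probe: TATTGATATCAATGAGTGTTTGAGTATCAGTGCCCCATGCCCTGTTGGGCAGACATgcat
TIMP3: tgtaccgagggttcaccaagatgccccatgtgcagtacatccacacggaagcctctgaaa
LGALS1, leading probe: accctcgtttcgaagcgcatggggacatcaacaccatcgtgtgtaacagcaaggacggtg
LGALS1, second probe: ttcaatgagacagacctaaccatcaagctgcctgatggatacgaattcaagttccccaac
ACAN, leading probe: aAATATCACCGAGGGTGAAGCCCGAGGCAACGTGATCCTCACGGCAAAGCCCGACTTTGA
The leading probe of a gene is the one with the highest mean over all arrays. Both FBLN1 probes share 56 of 60 bases and come from a partial cDNA of the 1-D form, so they read nearly the same stretch of message. The ACAN probes share 59 bases and lie in the interglobular domain of a partial cDNA. The LGALS1 probes share no stretch of 20 bases or more, with the leading one on bases 195 to 254 and the second on bases 329 to 388 of the transcript, and are the only pair here that reads separate parts of a message. No probe of another gene on the array shared 20 bases with any of the 8. Of the 8 probes 6, those of ANXA2, FBLN1, TIMP3 and LGALS1, were well above background on 16 of 16 arrays and none was saturated.

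**Figure D1:**
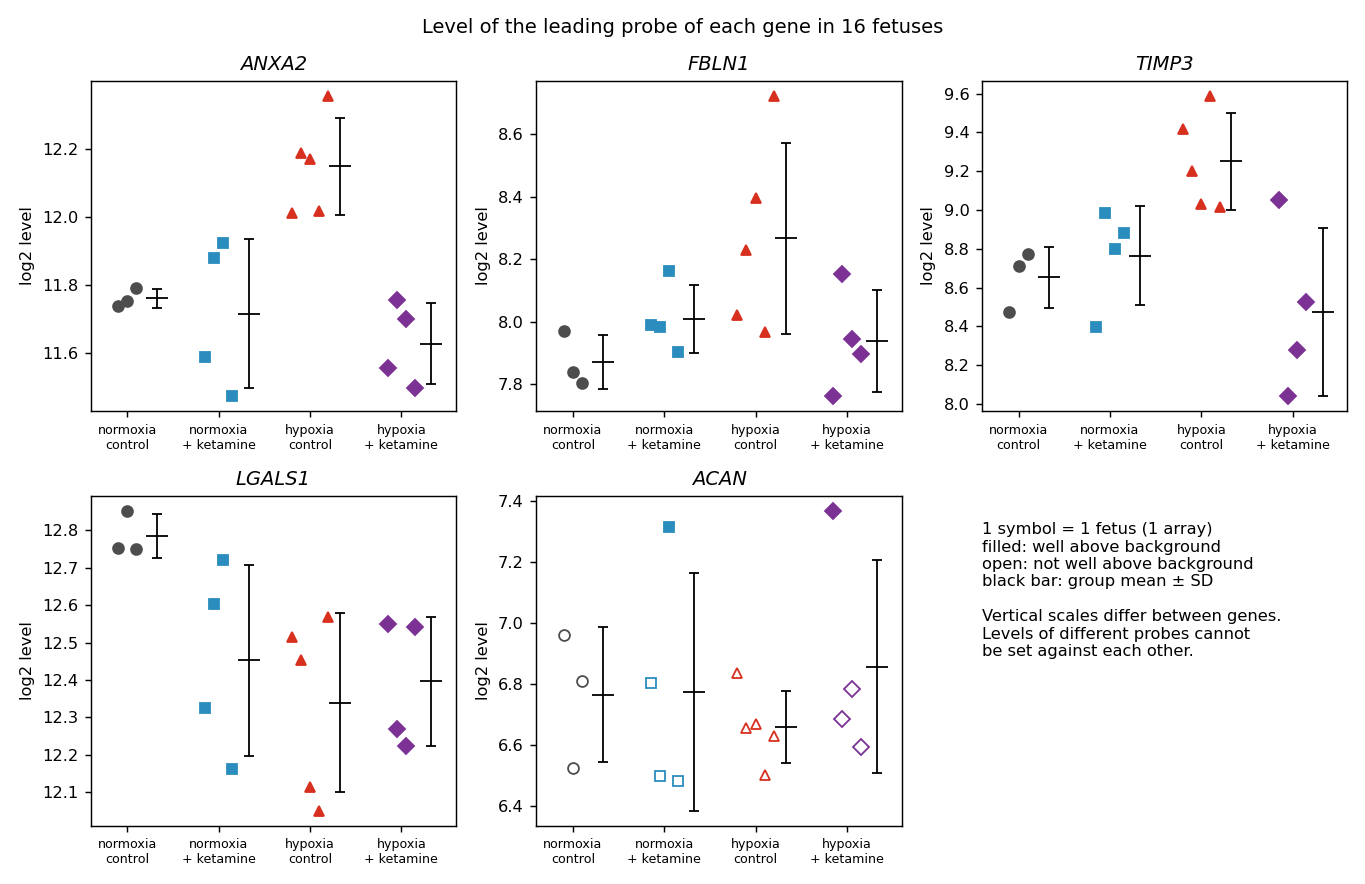
Log2 level (vertical axis) of the leading probe of ANXA2, FBLN1, TIMP3, LGALS1 and ACAN in the 4 groups (horizontal axis). Each symbol is 1 fetus, open where the probe was not well above background, and black bars are group means ± SD. ANXA2 in hypoxia control lies between 12.01 and 12.35, above every other fetus, and ACAN is filled in 2 fetuses.

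ANXA2, the surface receptor for plasminogen, was higher in the hypoxia control fetuses than in all others. Its level was 11.74, 11.75 and 11.79 in normoxia control, and 11.59, 11.88, 11.92 and 11.47 in normoxia + ketamine. After hypoxia alone it was 12.01, 12.19, 12.17, 12.02 and 12.35, and after ketamine and hypoxia 11.56, 11.76, 11.70 and 11.50. The lowest hypoxia control fetus therefore stood above the highest of the other 11, and the other groups overlapped. How many of all probes set 1 group apart in this way was not counted, and hypoxia control was part of the selecting comparison. Under median centring ANXA2 in hypoxia control overlapped both normoxia control and hypoxia + ketamine. Group means ± SD were 11.76 ± 0.028 (n = 3), 11.72 ± 0.22 (n = 4), 12.15 ± 0.14 (n = 5) and 11.63 ± 0.12 (n = 4) in the same order. Hypoxia control exceeded normoxia control by 0.39 (SE 0.11), or 1.31-fold, and hypoxia + ketamine was below hypoxia control by a log2 difference of −0.52 (SE 0.097), a value that is the basis of the selection.

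Ketamine without hypoxia gave an ANXA2 difference of −0.045 from normoxia control, with a 95% interval of −0.28 to 0.19. In this comparison, the one in which the gene was tested, limma's unadjusted P was 0.69 and the two-sided exact permutation p was 0.686, where 0.0571 is the smallest that 4 against 3 fetuses allow. The sign of so small a difference turned under median centring, where it was 0.30, with the replicate number as a block, where it was 0.0049, with replicate 1 of hypoxia control moved to normoxia + ketamine, where it was 0.014, and without normoxia + ketamine replicate 4, where it was 0.036. In hypoxia + ketamine against normoxia + ketamine the difference was −0.088 (SE 0.10), and −0.51 under median centring.

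FBLN1, the basement membrane glycoprotein, was also at its highest in hypoxia control, but with overlap between groups. The leading probe gave 7.97, 7.84 and 7.80 in normoxia control, and 7.99, 7.98, 8.16 and 7.90 in normoxia + ketamine. After hypoxia it gave 8.02, 8.23, 8.40, 7.97 and 8.72 without ketamine, and 7.76, 8.15, 7.94 and 7.90 with it. The spread in hypoxia control, an SD of 0.31 (n = 5), was the widest of the 4 groups, with replicate 5 at the top and replicate 4 at the level of normoxia control replicate 1. Hypoxia control exceeded normoxia control by 0.40 (SE 0.14), and the difference between hypoxia + ketamine and hypoxia control, on which the gene was selected, was −0.33 (SE 0.13). Without hypoxia control replicate 5 these values became 0.28 and −0.21, the latter smaller by more than 1.5 times.

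The second FBLN1 probe, shifted by 4 bases, gave 8.09, 8.21, 8.45, 8.10 and 8.76 after hypoxia alone and 7.63, 7.96, 7.91 and 7.73 after ketamine and hypoxia. On this probe those groups did not overlap, and the difference was −0.52 (SE 0.13) in place of −0.33. Against normoxia control, hypoxia control differed by 0.42 (SE 0.15) with no overlap either. Under median centring the groups overlapped on this probe in both comparisons. Over the 16 arrays the FBLN1 probes correlated with a Pearson r of 0.927, and 0.911 after removing group means. Ketamine without hypoxia gave a difference of 0.14 (95% interval −0.18 to 0.45) on the leading probe, with an unadjusted limma P of 0.36 and a two-sided exact permutation p of 0.114, the smallest possible again being 0.0571. The leading probe in normoxia + ketamine exceeded normoxia control in 11 of 12 pairs of fetuses, whereas the second did so in 6 of 12.

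**Figure D2:**
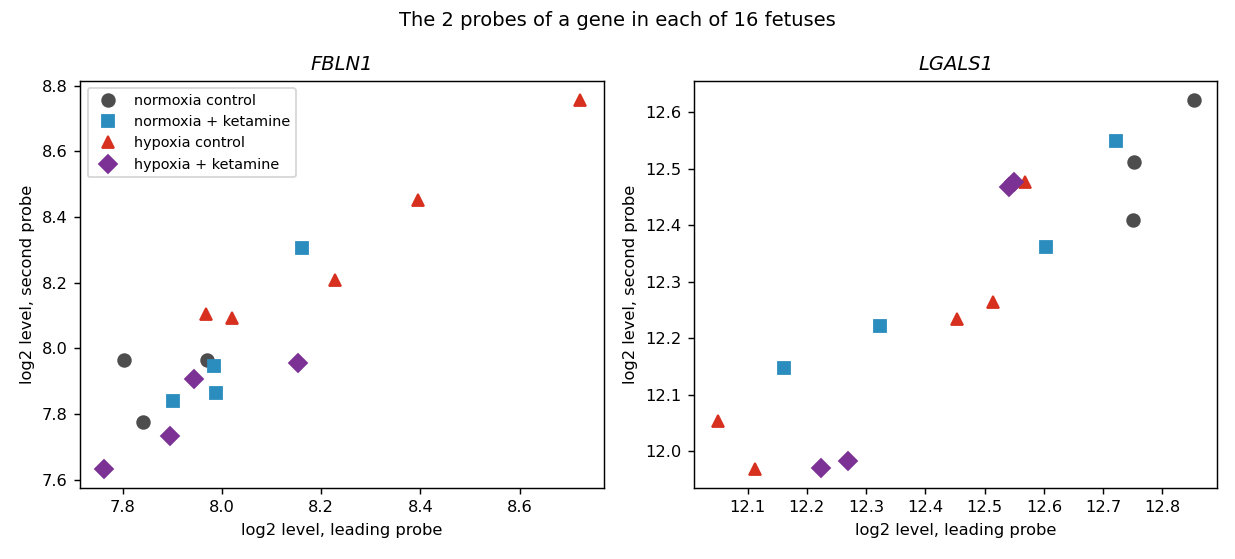
Log2 level of the second probe (vertical axis) against the leading probe (horizontal axis) for FBLN1 and LGALS1, 1 symbol per fetus and 1 symbol type per group. The FBLN1 probes share 56 bases (r = 0.927) and the LGALS1 probes read separate parts of the message (r = 0.912).

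TIMP3, the matrix-bound inhibitor of metalloproteinases, showed the largest difference of the 4 measured genes between hypoxia control and normoxia control. It stood at 8.48, 8.71 and 8.77 in normoxia control and at 9.42, 9.20, 9.03, 9.59 and 9.01 in hypoxia control, with no overlap. The difference was 0.60 (SE 0.20), or 1.51-fold, in the comparison on which it was selected. The normoxia + ketamine fetuses had levels of 8.40, 8.98, 8.80 and 8.88, close to normoxia control with a difference of 0.11 (SE 0.21). In hypoxia + ketamine they were 9.05, 8.04, 8.28 and 8.53, the widest group with an SD of 0.43 (n = 4).

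In hypoxia + ketamine, replicate 1 lay within the range of hypoxia control, whereas the other 3 fetuses lay below all hypoxia control fetuses. The difference from hypoxia control was −0.78 (SE 0.18), and −0.97 without that fetus. Between hypoxia + ketamine and normoxia + ketamine, the comparison in which TIMP3 was tested, the difference was −0.29 with a 95% interval of −0.70 to 0.12. Its unadjusted limma P was 0.155 and its two-sided exact permutation p 0.314, where 4 against 4 fetuses allow 0.0286. Without hypoxia + ketamine replicate 1 the difference was −0.48 and passed an unadjusted limma P under 0.05, so this 1 fetus decides on which side of the threshold the comparison falls. The difference in the ketamine fetuses, negative, and that in the control fetuses, positive, were not set against each other in a test, because the latter selected the gene.

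LGALS1, the galactose-binding lectin, went the other way, with its highest levels in normoxia control. The leading probe gave 12.75, 12.85 and 12.75 in normoxia control, and 12.32, 12.60, 12.72 and 12.16 in normoxia + ketamine. After hypoxia it gave 12.51, 12.45, 12.11, 12.05 and 12.57 without ketamine, and 12.55, 12.27, 12.22 and 12.54 with it. All 3 normoxia control fetuses stood above the other 13, among which the groups overlapped. How many of all probes do the same was not counted, and normoxia control was part of the selecting comparison. Under median centring LGALS1 in normoxia control overlapped both hypoxia control and normoxia + ketamine. Group means ± SD were 12.78 ± 0.059 (n = 3), 12.45 ± 0.26 (n = 4), 12.34 ± 0.24 (n = 5) and 12.40 ± 0.17 (n = 4).

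Hypoxia control differed from normoxia control in LGALS1 by −0.45 (SE 0.14), which selected the gene, and normoxia + ketamine by −0.33 (SE 0.15). The latter was 0.034, of opposite sign, under median centring. The second probe, on another part of the message, gave smaller differences of −0.32 (SE 0.14) and −0.19 (SE 0.15), and on it 1 of 15 and 2 of 12 pairs of fetuses ran against the mean difference. Between hypoxia + ketamine and normoxia + ketamine, where LGALS1 was tested, the difference was −0.057 with a 95% interval of −0.35 to 0.24, an unadjusted limma P of 0.69 and a two-sided exact permutation p of 0.686. Under median centring it was −0.50, and leaving out normoxia + ketamine replicate 3 or hypoxia + ketamine replicate 3 turned its sign, to 0.033 and 0.00069. The difference between hypoxia + ketamine and hypoxia control was 0.056 (SE 0.13), and its sign did not hold: it was −0.15 under median centring, where the second probe gave −0.16, −0.074 within slide 1, and −0.00032 and −0.016 without hypoxia control replicates 3 and 4.

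None of these 4 tests passed the unadjusted threshold, and adjusted over all 15008 probes by the Benjamini-Hochberg method their limma P values lay between 0.834 and 1.00. The intervals reach from about 0.82-fold to 1.14-fold for ANXA2, 0.89-fold to 1.37-fold for FBLN1, 0.78-fold to 1.18-fold for LGALS1, and 0.61-fold to 1.09-fold for TIMP3. They hold only for this scaling and if the model's spread holds. With median centring ANXA2 was 0.30 and LGALS1 −0.50, outside their log2 intervals of −0.28 to 0.19 and −0.35 to 0.24, so changes beyond the intervals are not excluded. Smaller changes could not be seen with this number of arrays.

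ACAN, the proteoglycan, could not be measured in most fetuses. Its leading probe was well above background in 2 of 16 fetuses, normoxia + ketamine replicate 3 at 7.31 and hypoxia + ketamine replicate 1 at 7.37. In the other 14 it read between 6.48 and 6.96 and was not well above background. The second probe, which differs from it by 1 base at either end, read 6.71 and 6.57 in those same 2 fetuses and was well above background in 0 of 16. Over the 16 arrays the ACAN probes had a Pearson r of −0.117, against 0.927 for the FBLN1 pair. No difference between groups is given for ACAN, since no group was measured on more than 1 of its arrays.

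Set side by side, the 4 measured genes fell into different patterns over the groups. By leading probes, hypoxia control and normoxia control did not overlap for ANXA2, TIMP3 and LGALS1, where 5.35% of all probes showed no overlap. Hypoxia + ketamine and hypoxia control did not overlap for ANXA2, against 2.33% of all probes. Normoxia + ketamine and normoxia control did not overlap for LGALS1, against 4.42%, and hypoxia + ketamine and normoxia + ketamine overlapped for all 4, against 3.52% of probes that did not. Nothing can be read from these counts, because genes were selected on the first and second comparisons, the third shares the normoxia control fetuses that selected LGALS1, and the fourth shares the hypoxia + ketamine fetuses that selected ANXA2 and FBLN1. Within each slide the ANXA2 difference was 0.35 and 0.39 for hypoxia control against normoxia control, and −0.44 and −0.58 for hypoxia + ketamine against hypoxia control. For FBLN1 these were 0.22 and 0.56, then −0.17 and −0.44, and for TIMP3 0.72 and 0.44, then −0.76 and −0.81. LGALS1 in hypoxia control differed from normoxia control by −0.32 and −0.51 within the slides, of which slide 2 held 1 normoxia control array. With replicate 1 of hypoxia control moved to normoxia + ketamine, the differences between hypoxia control and normoxia control were 0.42, 0.46, 0.56 and −0.49 for ANXA2, FBLN1, TIMP3 and LGALS1. Under each of 5 scalings of the arrays, the authors' own values among them, these 4 differences kept their signs, but under median centring the groups overlapped for all 4 genes. Hypoxia + ketamine and hypoxia control also overlapped for ANXA2 under median centring. For LGALS1, normoxia + ketamine and normoxia control overlapped under median centring and also in the authors' values.

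**Figure D3:**
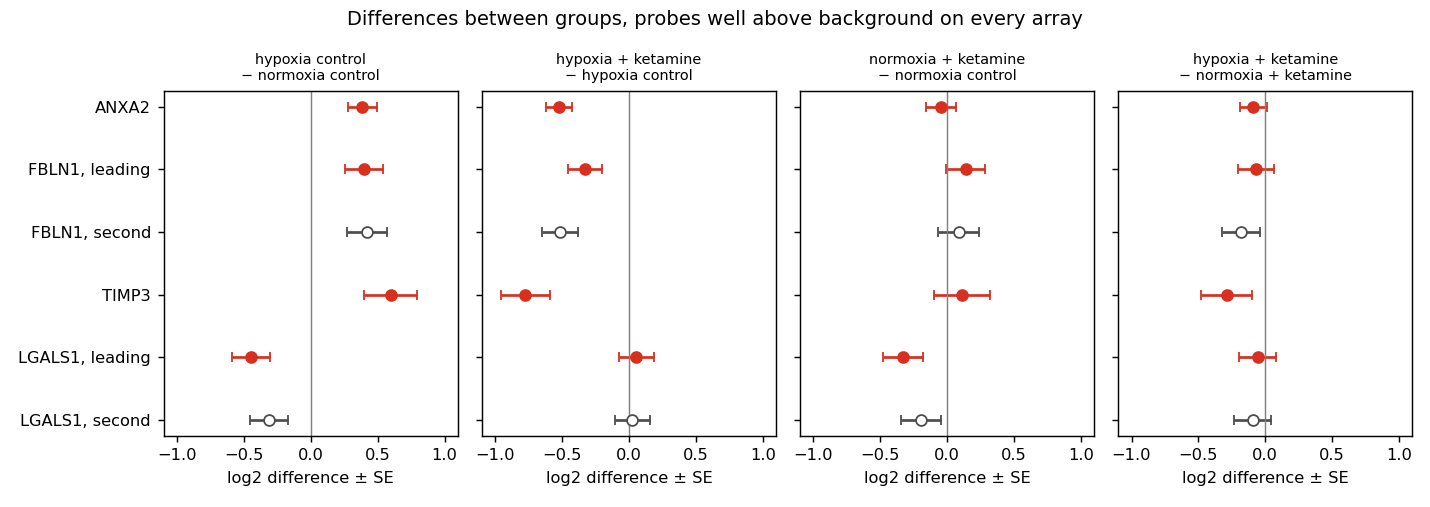
Log2 difference ± SE (horizontal axis) in 4 comparisons for the 6 probes well above background on every array, leading probes filled and second probes open. ANXA2, FBLN1 and TIMP3 lie at 0.39, 0.40 and 0.60 in hypoxia control against normoxia control and at −0.52, −0.33 and −0.78 in hypoxia + ketamine against hypoxia control, which share the hypoxia control fetuses. LGALS1 lies at −0.45 and 0.056.

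ANXA2 and FBLN1 followed each other from fetus to fetus. Their Pearson r over 16 arrays was 0.799, and 0.719 after removing group means. Among the 752 named genes well above background on at least 8 arrays, FBLN1 was the gene most like ANXA2, followed by TIMP1, a secreted metalloproteinase inhibitor (r = 0.725), and PFK-L, the name given for a phosphofructokinase of glycolysis (r = 0.723). For FBLN1 the first was PGFS (r = 0.831), named for a prostaglandin F synthase, followed by ANXA2 and TIMP1 (r = 0.775). After removing group means, r with ANXA2 was 0.502 for TIMP1 and 0.560 for PFK-L. For FBLN1 it was 0.771 with PGFS and 0.611 with TIMP1. ANXA2 and FBLN1 were selected on the same comparison, so their r over 16 arrays partly follows from that selection. These values describe arrays that share groups and slides and carry no test.

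TIMP3 ran differently inside the groups. After removing group means its r with FBLN1 was −0.694 and with ANXA2 −0.317. In hypoxia control, replicates 1 and 4 had the highest TIMP3, at 9.42 and 9.59, and the lowest ANXA2, at 12.01 and 12.02, while replicate 5 had the highest ANXA2 and FBLN1 and the lowest TIMP3. The gene most like TIMP3 was FGF2, basic fibroblast growth factor, with r = 0.900 over 16 arrays and 0.907 after removing group means. FGF2 was 11.03 and 11.12 in hypoxia control replicates 1 and 4 and 10.89 in hypoxia + ketamine replicate 1, the fetus with high TIMP3. In the other 13 fetuses FGF2 lay at or below 10.34. The next genes were IRF2, an interferon regulatory factor (r = 0.784), and ACSS2, an acetyl-CoA synthetase (r = 0.753). After removing group means these r values were 0.692 and 0.438.

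The genes most like LGALS1 were ATP6V0C (r = 0.712) and ATP6V1E1 (r = 0.703), both subunits of the proton pump of vesicles and lysosomes, and SLC4A4, a bicarbonate transporter (r = 0.699). The LGALS1 probes correlated with each other with an r of 0.912. LGALS1 and ANXA2 had an r of −0.0361, and of 0.451 after removing group means.

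**Figure D4:**
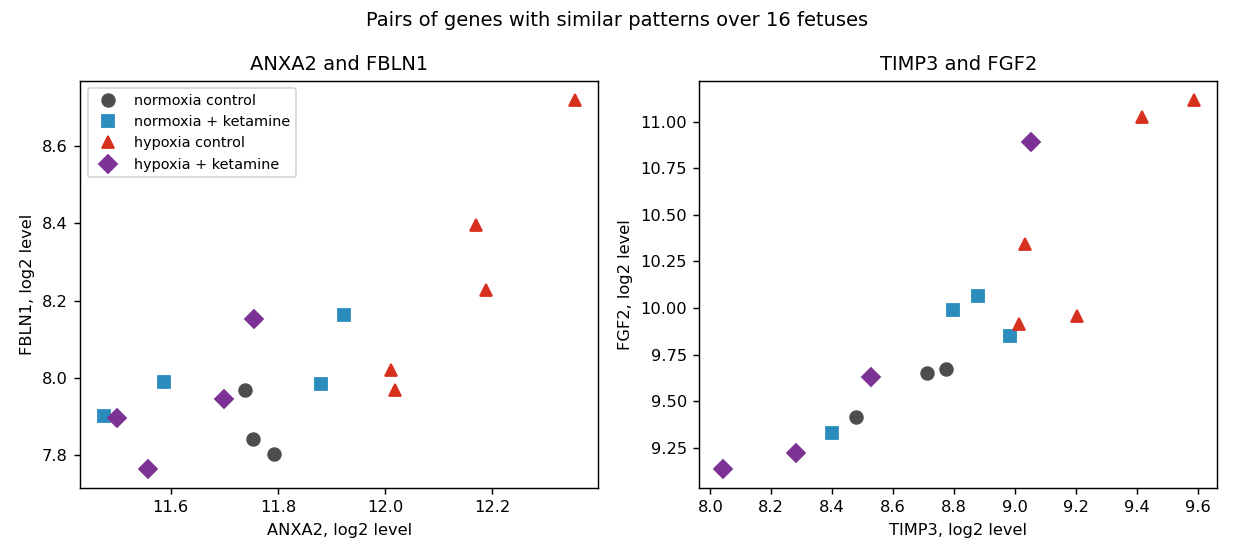
Log2 level of FBLN1 against ANXA2 (left, r = 0.799) and of FGF2 against TIMP3 (right, r = 0.900), with 1 symbol per fetus and 1 symbol type per group. In the right panel the 3 fetuses highest in FGF2 are hypoxia control replicates 1 and 4 and hypoxia + ketamine replicate 1. Points share groups and slides, ANXA2 and FBLN1 were selected on the same comparison, and r is a description.

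Markers of other cells moved with some of these genes, and their part in the differences was not tested. For each list the mean log2 value over its genes on the array was taken. For vessel wall and meningeal fibroblasts (3 of 14 genes on the array, COL1A2, COL3A1 and DCN) it was 8.82 to 8.86 in normoxia control, 8.67 to 9.10 in normoxia + ketamine, 8.68 to 9.55 in hypoxia control and 8.52 to 8.74 in hypoxia + ketamine. Its r after removing group means was 0.471 with ANXA2, 0.466 with FBLN1, −0.0214 with TIMP3 and 0.454 with LGALS1. For endothelium (6 of 12 genes, with SELE well above background on 0 arrays) it was 7.68 to 7.80, 7.62 to 7.71, 7.87 to 8.43 and 7.70 to 8.04 in the same order, with an r of 0.623 with TIMP3, −0.753 with FBLN1, −0.455 with ANXA2 and −0.228 with LGALS1. For microglia and macrophages (4 of 17) it was 8.10 to 8.30, 8.21 to 8.48, 8.45 to 9.25 and 8.30 to 8.97, with an r of 0.413 with ANXA2, 0.276 with FBLN1, −0.311 with TIMP3 and −0.0195 with LGALS1. For choroid plexus (4 of 10, AQP1 well above background on 1 array) it was 10.15 to 12.11, 10.03 to 11.45, 9.40 to 11.57 and 9.61 to 10.99, with an r of 0.466 with LGALS1, 0.408 with ANXA2, 0.370 with FBLN1 and 0.145 with TIMP3. For red blood cells (3 of 14, CA1 well above background on 0 arrays) it was 9.09 to 9.79, 9.22 to 9.80, 9.24 to 10.31 and 9.24 to 9.72, with an r of 0.207 with ANXA2, 0.332 with FBLN1, −0.238 with TIMP3 and −0.115 with LGALS1. For astrocytes (4 of 8, FGFR3 well above background on 1 array) the list level was highest on average in hypoxia control. After removing group means its r was −0.0241 with ANXA2, −0.00976 with FBLN1, 0.0393 with TIMP3 and 0.171 with LGALS1. In hypoxia control against normoxia control limma called SELP, an endothelial adhesion molecule, higher by 2.54 (well above background in 2 of 3 normoxia control fetuses), CD14 of macrophages higher by 0.95, AHSP of red cell precursors higher by 0.89, GFAP of astrocytes higher by 0.79, and TTR, the main secreted protein of choroid plexus, lower with a difference of −4.30 (well above background in 4 of 5 hypoxia control fetuses), all with adjusted P values between 0.317 and 0.541. SELP was the only one of 6 endothelial genes called, with PECAM1 at −0.12, KDR at −0.085, TIE1 at 0.0027 and FLT1 at 0.097, and the list median was −0.034. The list level is a plain mean over its genes, so it and its r may mainly follow SELP. The same holds for TTR in the choroid plexus list. TTR was the only one of 4 choroid plexus genes called, with IGF2 at 0.42 and IGFBP2 at 0.11, and the list median was 0.041. The TTR difference had an SE of 1.64, and the SD of TTR in normoxia control was 3.73 (n = 3). In normoxia + ketamine against normoxia control TTR differed by −3.44 (SE 1.71) and was not called. GFAP was the only astrocyte gene called, with AQP4 at 0.029, GJA1 at 0.086 and FGFR3 at 0.025. Beside CD14, CTSS was at 0.33, LYZ at 0.81 and ITGAM at −0.0057, none of them called. LYZ was well above background on 8 arrays and in 0 of 3 normoxia control fetuses. ITGAM was so on 4 arrays and in 0 of 5 hypoxia control fetuses, so this list level rests in part on dim readings. Beside AHSP, HBB was at 0.59 and CA1 at 0.081, neither called. In hypoxia + ketamine against hypoxia control limma called SELP, CD14, GFAP and DCN lower, with differences of −1.74, −0.60, −0.54 and −0.66. Their adjusted P values lay between 0.408 and 0.495. The other astrocyte genes were at −0.17 (AQP4), −0.12 (GJA1) and 0.37 (FGFR3). Those of macrophages were at −0.27 (CTSS), 0.11 (LYZ) and −0.035 (ITGAM), and those of endothelium between −0.14 (FLT1) and 0.062 (PECAM1). Beside DCN, COL1A2 was at −0.33 and COL3A1 at −0.062. Choroid plexus genes were at −1.53 (IGF2), −0.58 (IGFBP2), 0.73 (TTR) and −0.097 (AQP1). Red blood cell genes were at −0.61 (HBB), −0.30 (AHSP) and −0.0098 (CA1). None of these others was called.

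The rest of the matrix machinery was read from 7 lists of 244 genes besides these 5, of which 33 were on the array under a name. Among them were 12 proteases and inhibitors, 12 integrins and other receptors, 5 collagens, 3 proteoglycan or hyaluronan genes and 1 galectin. No other annexin, fibulin or S100 partner was among them. DCN, COL1A2, COL3A1, CTSS and ITGAM were counted here and are also in the marker lists above. Genes were called at an unadjusted limma P under 0.05, and after Benjamini-Hochberg adjustment over all probes 0 of the 33 passed in any comparison.

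In hypoxia control against normoxia control 5 of 33 genes were called (15.2%), against 7.98% of all probes (3.34% higher and 4.64% lower). Higher were CCN1, a matrix protein that binds integrins, by 1.17 (SE 0.41, adjusted P 0.494 by limma), TIMP1 by 0.39 (SE 0.15) and CTSB, the lysosomal protease cathepsin B, by 0.18 (SE 0.078). Lower were PLAU, the urokinase that activates plasminogen, by a difference of −0.26 (SE 0.12), and ITGB5, an integrin subunit, by −0.20 (SE 0.090). The median difference over the 33 genes was 0.032, and over all probes −0.020. CCN1 was 9.51, 8.33, 8.14, 10.07 and 7.54 in hypoxia control against 7.67, 7.47 and 7.50 in normoxia control, so that the fetuses high in TIMP3, replicates 1 and 4, were also the highest in CCN1. The second TIMP1 probe gave 0.22 and an unadjusted limma P of 0.186, and was not called.

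In hypoxia + ketamine against hypoxia control 5 of 33 were called, again 15.2%, against 9.06% of all probes (5.49% higher and 3.56% lower). Lower were CCN1 by −0.83 (SE 0.38), DCN, the collagen-binding proteoglycan decorin, by −0.66 (SE 0.21, adjusted P 0.454 by limma), TIMP1 by −0.38 (SE 0.14) and ITGA4, an integrin subunit of leukocytes, by −0.21 (SE 0.087). ITGA4 was well above background in 1 of 4 and 4 of 5 fetuses. DCN was 11.86, 11.50, 11.62 and 11.29 in hypoxia + ketamine and 12.19, 11.99, 11.82, 12.38 and 12.74 in hypoxia control, overlapping in 1 pair. MMP13, a collagenase, was called higher, but the call rests on 1 fetus: the probe was well above background in 1 of 4 hypoxia + ketamine fetuses, replicate 4 at 7.70, and in 0 of 5 hypoxia control fetuses, so no fold is given. The median over the 33 genes was −0.062, and over all probes 0.018.

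Ketamine in normoxia called 1 of 33 genes (3.03%, against 2.31% of all probes, 0.880% higher and 1.43% lower), the tetraspanin CD9, which associates with integrins, higher by 0.34 (SE 0.16). In hypoxia + ketamine against normoxia + ketamine 4 of 33 were called (12.1%, against 6.86% of all probes, 3.12% higher and 3.74% lower), and all were lower. These were COL2A1, a fibrillar collagen, by −0.81 (SE 0.23, adjusted P 0.483 by limma), DCN by −0.55 (SE 0.22), CD9 by −0.32 (SE 0.14) and BGN, the proteoglycan biglycan, by −0.32 (SE 0.14). COL2A1 was 7.13, 6.98, 7.78 and 7.24 in hypoxia + ketamine and 7.84, 8.24, 8.49 and 7.81 in normoxia + ketamine, without overlap, and replicate 2 of the former was not well above background. Another probe, described as type II collagen without a gene name and well above background on 15 of 16 arrays, differed by 0.099 in the same comparison, with an unadjusted limma P of 0.560. The medians over the 33 genes were 0.038 and −0.058. Under median centring the list medians turned sign in both of these comparisons and in hypoxia control against normoxia control, to −0.12, 0.028 and −0.10.

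The calls on list genes were narrow. All 15 differences kept their sign under the 4 other scalings of the arrays, but some sizes did not hold. Of the calls at dim probes, ITGA4 went from −0.21 to −0.030 under median centring and to −0.98 with the 75th percentile, where MMP13 went from 0.35 to 1.49 and COL2A1 from −0.81 to −1.81, and in the authors' values MMP13 was 0.20. Under median centring CD9 went from 0.34 to 0.69 and from −0.32 to −0.76. Of the 15 calls, 10 were on genes with a second probe, which was called in 4 and not called in 6. The uncalled second probes were those of CD9, at 0.26 (unadjusted limma P 0.132) in ketamine under normoxia and −0.26 (P 0.102) in hypoxia + ketamine against normoxia + ketamine, ITGB5 at −0.16 (P 0.120), TIMP1 in hypoxia control against normoxia control, given above, ITGA4 at −0.15 (P 0.0627) and DCN in hypoxia + ketamine against normoxia + ketamine at −0.40 (P 0.0519). Of the 15, 3 calls held whichever array was left out: CCN1 in hypoxia control against normoxia control, DCN in hypoxia + ketamine against hypoxia control, and COL2A1 in hypoxia + ketamine against normoxia + ketamine. With replicate 1 of hypoxia control moved to normoxia + ketamine, as its other labels have it, 11 of the 15 calls held. Lost by limma's unadjusted P were CCN1 in both of its comparisons, at 0.97 (P 0.0806) and −0.64 (P 0.204), PLAU at −0.27 (P 0.0765) and BGN at −0.27 (P 0.0603). The call on CD9 in ketamine under normoxia ended with any of 10 arrays left out, with a lowest value of 0.21. MMP13 fell to 0.15 without hypoxia + ketamine replicate 4, and CCN1 in hypoxia + ketamine against hypoxia control lay between −1.13 and −0.50 with single arrays left out. The differences of DCN and of CD9 in hypoxia + ketamine against normoxia + ketamine lay between −0.77 and −0.41 and between −0.43 and −0.20.

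**Figure D5:**
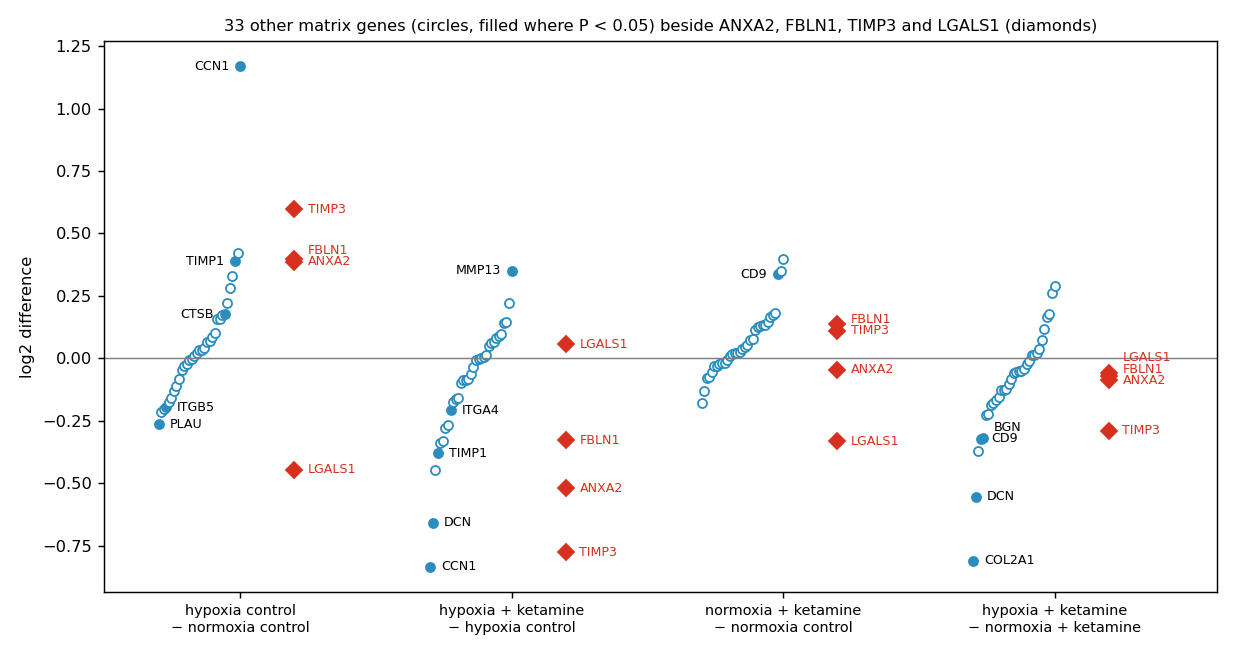
Log2 difference (vertical axis) of 33 other matrix genes (circles, in order of size, filled and named where the unadjusted limma P was under 0.05) and of the leading probes of ANXA2, FBLN1, TIMP3 and LGALS1 (diamonds, selected genes, not tested here) in 4 comparisons. Filled circles number 5, 5, 1 and 4 from left to right, and those of the last comparison are all below 0.

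Collagens are poorly named on this array, so 9 collagen probes that carry a description without a gene name were added after the named genes had been counted. In hypoxia + ketamine against hypoxia control 2 of the 9 were called, against 9.06% of all probes, both lower, the alpha-1(III) chain by −0.31 (SE 0.13) and the alpha-1(IV) chain by −0.21 (SE 0.093). In hypoxia + ketamine against normoxia + ketamine 2 were called, against 6.86% of all probes, both lower, the alpha-1(III) chain by −0.56 (SE 0.14, adjusted P 0.470 by limma) and 1 of the probes for the alpha-1(I) chain by −0.28 (SE 0.13). The named COL3A1 probe, for the same chain, was called in neither, at −0.062 (unadjusted limma P 0.521) and −0.18 (P 0.0912). In the other comparisons 0 of the 9 were called. The medians over the 9 were 0.094, −0.20, 0.032 and −0.064, in the order hypoxia control against normoxia control, hypoxia + ketamine against hypoxia control, normoxia + ketamine against normoxia control and hypoxia + ketamine against normoxia + ketamine.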

How the data were processed

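The authors labelled frontal cortex RNA of 16 fetuses with cyanine 3 and hybridized it to 1-colour Agilent sheep arrays, 1 per fetus. Deposited scanner files give spot intensity before normalization between arrays, as written by Feature Extraction 10.1.1.1 per the file headers (the paper's methods name another version). The authors' deposited table holds log2 values after background correction and quantile normalization with limma in R 2.15.1, per the submitters' processing notes, and was used as an alternative; its column medians were 8.18 on every array.

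In R 4.3.3 with limma 3.58.1, normexp was applied to mean spot signal and median local background (offset 50), followed by removal of 536 control spots and 222 outlier spots, quantile normalization and averaging over spots of a probe. This gave 15008 probes, of which 132 lacked a value on some array, and dim probes were kept. Any pair of arrays correlated between 0.984 and 0.996. Names came from the files' gene names and accessions through a RefSeq sheep gene table, for 1656 probes. The match was by accession for 726, by current symbol for 498, by gene ID for 125, by former symbol for 21 and by capitalized symbol for 13, and the file's own name stood for 273. LGALS1 is GAL-1 in the files. The table's genome build is not that of the files, so no coordinates are given.

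Group means were fitted to all 16 arrays with limma's linear model and empirical Bayes moderation, and a probe was called where the unadjusted P was below 0.05, the threshold of the paper, with Benjamini-Hochberg adjustment beside them. Single values were tested by two-sided exact permutation of fetuses, with the smaller tail doubled. The model was tested on simulated data. The members, lists and tests were chosen with earlier results of these data known. The text names all probes of the 5 genes. Per comparison it also names the called list genes, up to the 4 largest each way, and for each member the 3 named genes with the highest Pearson r among those well above background on at least 8 arrays; for ACAN these are not given, as it was not measured. Alternatives were other background corrections and scalings, a filter on dim probes, slide or replicate number as a block, only the groups compared, the authors' values, hypoxia control replicate 1 under its other label, each array left out, and the mean of a gene's probes.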

Additional observations from a re-analysis of the deposited data

Results flagged for a closer look

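Each FBLN1 probe met a different criterion for a difference between arms of the study, and failed that of the other probe. Neither difference was tested. Both criteria were applied to each of the 8 probes, and how many of all probes on the array meet them was not counted. On the second probe, all 5 hypoxia control fetuses stood above the mean of normoxia control, by 0.42 on average, and all 4 hypoxia + ketamine fetuses below the mean of normoxia + ketamine, by −0.18 on average, which makes a gap of −0.60. On the leading probe, all 4 normoxia + ketamine fetuses stood above the mean of normoxia control, by 0.14 on average, and all 4 hypoxia + ketamine fetuses below the mean of hypoxia control, by −0.33 on average, which makes a gap of −0.47. The patterns were not shared: on the second probe, normoxia + ketamine replicates 1 and 4 (7.87 and 7.84) lay below the normoxia control mean of 7.90. On the leading probe, hypoxia + ketamine replicate 2 (8.15) lay above the normoxia + ketamine mean of 8.01. FBLN1 was selected on hypoxia + ketamine against hypoxia control, and those fetuses enter both gaps. In the leading probe's gap, the −0.33 is the selecting difference itself. In 24 groups of 4 or 5 fetuses, over the 8 probes, no fetus stood apart from its group by Dixon's criterion.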

How the results depend on the processing

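Of 176 differences of ANXA2, FBLN1, TIMP3 and LGALS1 under other settings, 169 kept their sign and 7 turned it. Among the untested comparisons, 5 that kept it moved by more than the spread between fetuses, the pooled SD within groups. Tested comparisons were judged by sign and threshold and are not in that count. Of these, LGALS1 in hypoxia + ketamine against normoxia + ketamine went from −0.057 to −0.50 with median centring, where its pooled SD was 0.21. With 1 array left out, 251 of 256 kept their sign and 5 turned it. Leaving out an array of a group that is not compared cannot change a difference of group means. Many of the 256 values were therefore fixed beforehand. The same holds, among the 176, for the filter on dim probes and for only the groups compared. LGALS1 in hypoxia + ketamine against hypoxia control, 0.056, was −0.15 with median centring, −0.074 within slide 1, −0.00032 without hypoxia control replicate 3 and −0.016 without replicate 4. FBLN1 in hypoxia + ketamine against normoxia + ketamine, −0.070, was 0.020 with median centring. With the processed signal scaled to the 75th percentile, FBLN1 was 0.72 in hypoxia control against normoxia control and −0.56 in hypoxia + ketamine against hypoxia control, TIMP3 was −1.09 in the latter, and the list genes called numbered 2 in hypoxia control against normoxia control, 0 in normoxia + ketamine against normoxia control and 8 in hypoxia + ketamine against normoxia + ketamine, in place of 5, 1 and 4. With median centring, ANXA2 was −0.72 in hypoxia + ketamine against hypoxia control, −0.51 against normoxia + ketamine, and 0.30 in normoxia + ketamine against normoxia control, where LGALS1 was 0.034, and 1, 2 and 0 list genes were called in hypoxia control against normoxia control, hypoxia + ketamine against hypoxia control and normoxia + ketamine against normoxia control. Without background correction, and with the mean of a gene's probes, 3 list genes were called in hypoxia control against normoxia control and 0 in normoxia + ketamine against normoxia control. That last count was also 0 with slide as a block and with the authors' values, and 2 with replicate 1 of hypoxia control moved to normoxia + ketamine, where ANXA2 was 0.014. With only the groups compared, 2 were called in hypoxia + ketamine against hypoxia control. Within slide 1 the counts were 2, 1 and 0 in hypoxia control against normoxia control, hypoxia + ketamine against hypoxia control and normoxia + ketamine against normoxia control, and within slide 2 they were 0, 2 and 0, and 0 in hypoxia + ketamine against normoxia + ketamine. The causes of these changes were not tested, except that single slides hold fewer arrays. The median of all probes moved by less than 0.1 under each scaling. A filter on dim probes left ACAN without a value.

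Whether replicate numbers pair the fetuses cannot be told, because pairs of unequal number were not compared. Over 21 pairs of equal number, deviations from group means correlated between −0.11 and 0.37, with 6 pairs over 0.1. Between control and ketamine fetuses of the same stimulus, r for replicates 1 and 2 was 0.34 and 0.26 in normoxia and 0.26 and 0.37 in hypoxia. For replicate 3 it was 0.038 and −0.11, and for replicate 4, in hypoxia only, 0.048. With the replicate block, 9 list genes were called in hypoxia control against normoxia control and 8 in hypoxia + ketamine against hypoxia control, and ANXA2 in normoxia + ketamine against normoxia control was 0.0049.

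With each array left out in turn, ANXA2 ranged from 0.34 to 0.42 in hypoxia control against normoxia control, −0.56 to −0.47 in hypoxia + ketamine against hypoxia control, −0.11 to 0.036 in normoxia + ketamine against normoxia control and −0.17 to −0.019 in hypoxia + ketamine against normoxia + ketamine. In the same order FBLN1 ranged from 0.28 to 0.47, −0.40 to −0.21, 0.087 to 0.19 and −0.14 to −0.011, TIMP3 from 0.51 to 0.66, −0.97 to −0.63, 0.023 to 0.23 and −0.48 to −0.14, and LGALS1 from −0.50 to −0.37, −0.016 to 0.11, −0.42 to −0.24 and −0.15 to 0.033. The list genes called ranged from 1 to 6, 3 to 6, 0 to 2 and 2 to 6.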
